A study of Bos taurus with 12 samples.

Results

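Transcripts of 7 genes of the TNF and interleukin-1 response were followed in the blood of 12 Holstein cows, 1 RNA-seq library per cow, taken by jugular puncture at day 7 post partum. The genes were chosen by symbol: TNF, IL1A, IL1B, IL1RN, CXCL8, CCL4 and PTGS2. Each symbol matched 1 of the 27429 rows of the count table, and all 7 genes passed the minimum mean raw count of 10, as did 11990 genes in all. One group held 6 cows labelled with mineral supplementation, a parenteral (injected) trace element product per the series title, and the other 6 cows labelled control. All were female Holsteins sampled at the same time, and the blood RNA was depleted of haemoglobin transcripts. Supplemented cow 6 stood apart, with the lowest TMM factor (0.717). The elements, dose and days of injection, and the age of the cows, were not stated in the labels. The cell type label reads white blood cell, whereas the series title speaks of peripheral blood, and the markers of B cells, T cells, monocytes and neutrophils examined below were detected in the libraries. Total counts ranged from 6.78 M to 16.9 M per library. Levels are CPM, read counts scaled to library size, after TMM scaling. CPM is not corrected for transcript length, so levels are compared between cows and never between genes.

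TNF and the interleukin-1 cytokines are made within hours of microbial or tissue damage signals, mainly by monocytes, macrophages and neutrophils. Both act through receptors that converge on the transcription factor NF-kB, which switches on chemokines, the prostaglandin enzyme PTGS2, and the inhibitors that end the response. In dairy cows such transcripts are studied around calving, when uterine and udder infections are common.

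All 7 transcripts had their highest level in the same animal, control cow 5. Of all genes tested, 8.16% had their highest level in this cow. In 5 of the 7 genes (CCL4, TNF, IL1B, IL1A and PTGS2) the level was at least 3 times that of the second-highest cow, which was the case for 0.267% of all genes tested (32 of 11990). The count of 5 was also obtained at a threshold of 2 times, which 0.926% of all genes passed, and at 5 times, which 0.1% passed. CXCL8 and IL1RN exceeded the next cow by less. The genes had been picked with earlier results on TNF and IL1B in this cow known, so these counts are a description and carry no test. In blood, more cells of a type and more RNA per cell cannot be told apart.

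**Figure D1:**
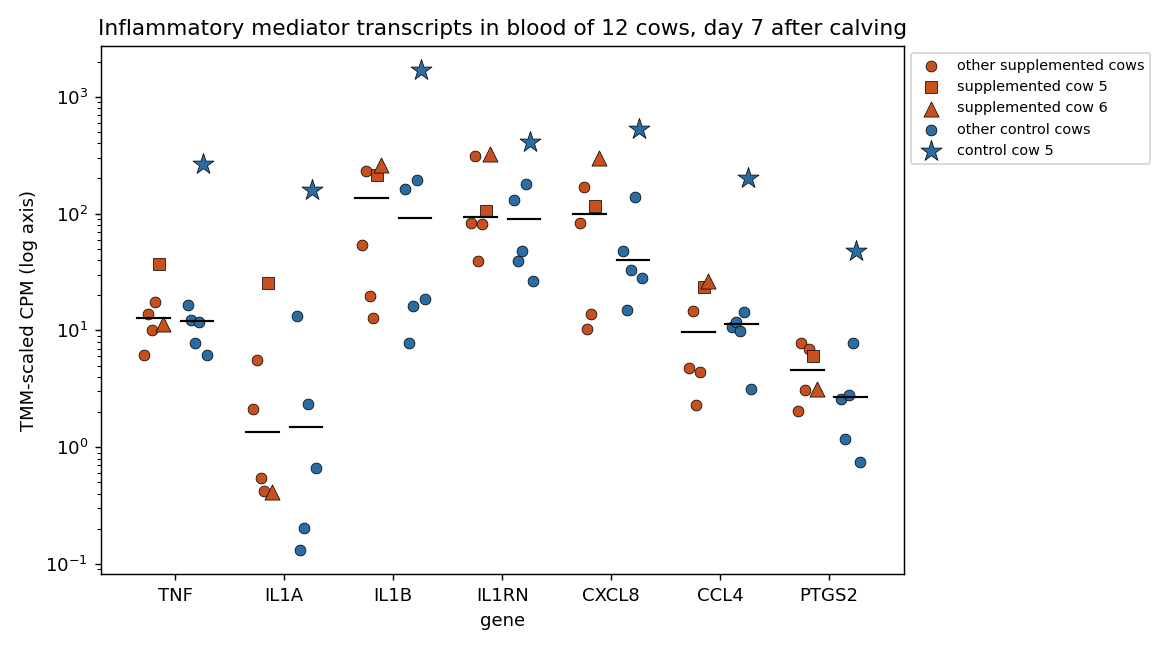
TMM-scaled CPM of the 7 genes on a log axis, with 1 point per cow, supplemented cows to the left and control cows to the right of each gene, and a bar at the median of 6 cows. Control cow 5 (star) was the highest point of every gene, up to 1699 CPM for IL1B, while the other cows of both groups lay in overlapping ranges, with the higher maximum among supplemented cows in TNF, IL1A, IL1B, IL1RN, CXCL8 and CCL4.

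TNF encodes tumour necrosis factor, a cytokine that is shed from the cell surface and activates endothelium and leukocytes. Its level in supplemented cows was 6.19 CPM at the lowest, 12.7 at the median and 37.0 at the highest. In control cows it was 6.18 CPM at the lowest, 12.1 at the median and 265 at the highest. The groups overlapped, and control cow 5 stood 7.17 times above the second-highest cow, supplemented cow 5. Next among the control cows was control cow 1 at 16.6 CPM. The level of control cow 5 was 22.0 times the median of the 12 cows.

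IL1A, the interleukin-1 alpha precursor, is active without cleavage and is released from damaged cells. It had fewer than 10 raw counts in 6 of the 12 libraries, and 1 raw count in control cow 2. Supplemented cows had 0.414, 1.34 and 25.7 CPM as lowest, median and highest level. Control cows had 0.131, 1.49 and 159.9 CPM. Next to control cow 5, with 1079 raw counts, came supplemented cow 5 and, at 13.2 CPM, control cow 1. Supplemented cow 6 had 5 raw counts (0.414 CPM), although its IL1B level was the second-highest of the series.

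IL1B encodes interleukin-1 beta, which caspase-1 cuts into its active form in the inflammasome. Supplemented cows had 12.8, 135 and 258 CPM as lowest, median and highest level, and control cows 7.74, 91.0 and 1699 CPM. Control cow 5 had 11464 raw counts, a CPM 6.58 times that of supplemented cow 6, the next. Without control cow 5 the remaining 11 cows spread from 7.74 to 258 CPM. Supplemented cows 2, 5 and 6 and control cows 1 and 4 lay between 164 and 258 CPM, and the other 6 cows between 7.74 and 54.1 CPM.

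IL1RN encodes the interleukin-1 receptor antagonist, which occupies the interleukin-1 receptor without signalling. Supplemented cows had 39.0, 93.9 and 327 CPM as lowest, median and highest level, and control cows 26.4, 89.5 and 408 CPM. The highest level, again in control cow 5, was 1.25 times that of supplemented cow 6. This ratio was the smallest of the 7 genes. Supplemented cow 2 followed at 310.1 CPM.

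The balance of antagonist and agonist transcripts varied between cows. IL1RN counts per IL1B count were 0.240 in control cow 5, the lowest of the 12 cows, and 6.41 in supplemented cow 4, the highest. The ratio was below 1 in 4 cows: control cows 5, 4 and 1 and supplemented cow 5 (0.485). Counts are not corrected for transcript length, so a ratio of 1 does not mark equal transcript numbers. Only differences of the ratio between cows can be read. Both groups spanned most of this range, with a median of 1.44 in supplemented and 1.18 in control cows. Supplemented cow 6, with nearly the same IL1RN level as supplemented cow 2, had a ratio of 1.26 against 1.35.

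**Figure D2:**
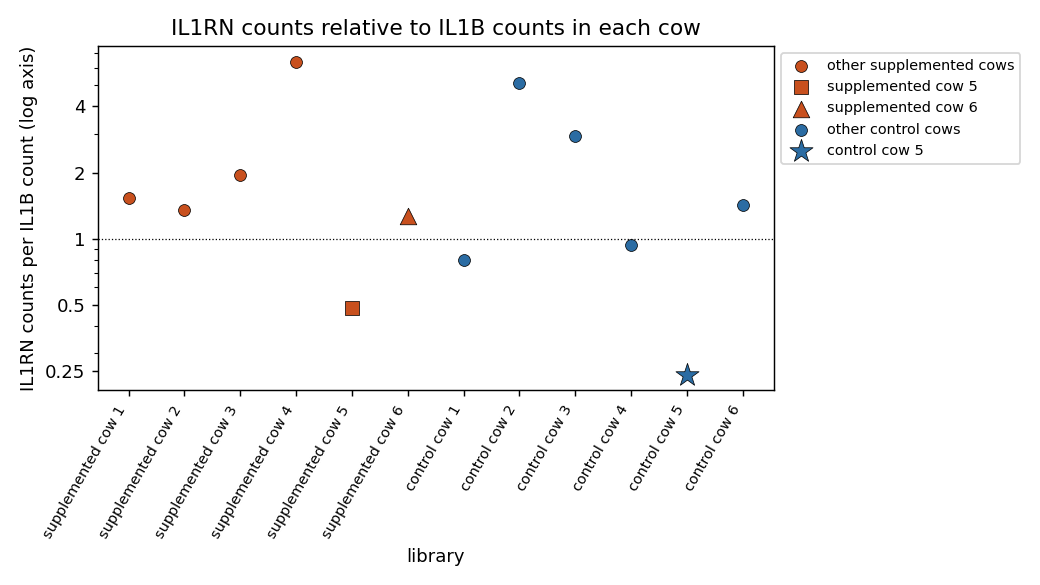
IL1RN counts divided by IL1B counts of the same library, on a log axis, for each of the 12 cows, with a dotted line at equal counts. Counts are not corrected for transcript length, so the line does not mark equal transcript numbers. The ratio was lowest in control cow 5 (0.240) and supplemented cow 5 (0.485), and highest in supplemented cow 4 (6.41) and control cow 2 (5.10).

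CXCL8, interleukin-8, is the chemokine that recruits neutrophils through CXCR1 and CXCR2. Its lowest, median and highest levels were 10.3, 99.1 and 299.5 CPM in supplemented cows and 14.96, 40.4 and 535 CPM in control cows. Control cow 5 exceeded supplemented cow 6 by 1.79 times. Supplemented cow 2 (169 CPM), control cow 4 (138 CPM) and supplemented cow 5 (116 CPM) came next, so that the high cows were largely those with high IL1B.

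CCL4, macrophage inflammatory protein 1 beta, attracts monocytes and lymphocytes. Supplemented cows had 2.30, 9.78 and 26.6 CPM as lowest, median and highest level, and control cows 3.13, 11.3 and 202 CPM. The ratio of control cow 5 to the second-highest cow, supplemented cow 6, was 7.61, the largest of the 7 genes. CCL4 belongs to a chemokine family of close copies, so its reads may in part be shared with CCL3 or related genes.

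PTGS2, cyclooxygenase 2, makes the precursor of the prostaglandins of fever and pain. It was at 2.02, 4.598 and 7.84 CPM in supplemented cows (lowest, median and highest) and at 0.741, 2.70 and 48.2 CPM in control cows. Control cow 5 had 325 raw counts and a CPM 6.14 times that of control cow 4 (7.85 CPM), and supplemented cow 2 lay just below that. Supplemented cow 6, second-highest in IL1B, IL1RN, CXCL8 and CCL4, ranked 6 of 12 in PTGS2, 8 in TNF and 10 in IL1A.

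With control cow 5 set aside, the second-highest animal differed between the genes, as the plot of CPM by gene shows. Supplemented cow 5 led for TNF and IL1A. Supplemented cow 6 led for IL1B, IL1RN, CXCL8 and CCL4. Control cow 4 led for PTGS2. At the lower end, control cow 2 was among the 3 lowest cows in 5 of the 7 genes and control cow 6 in 4. The lead of the highest remaining cow over the next was at most 2.10 times, in TNF. This view without control cow 5 was added after the levels had been seen.

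Correlations of log2 CPM across the 12 cows were computed for the 21 pairs of genes, with two-sided permutation p adjusted over the 21 pairs, after the levels had been seen. The median Pearson's r was 0.75 with all cows and 0.53 (lowest 0.17) without control cow 5, the cow in which these genes were known to be high when they were chosen. The permutation p include this cow, so they describe the pairs and carry no test of a relation. Of the 21 pairs, 20 passed by r and 8 by rho. IL1A and IL1B had r = 0.84 and rho = 0.69 (permutation adjusted p = 0.00235 and 0.0415), and r = 0.71 without control cow 5 and supplemented cow 5. IL1A and TNF had r = 0.81 and rho = 0.53 (permutation adjusted p = 0.00628 and 0.0995), and r = 0.29 without the same 2 cows. IL1B and CXCL8 had r = 0.93 (permutation adjusted p = 0.00105) and rho = 0.90 (permutation adjusted p = 0.0022), and r = 0.88 without the 2 cows farthest from the IL1B median. IL1RN and CXCL8 had r = 0.88 and rho = 0.91 (permutation adjusted p = 0.00231 and 0.0022), and r = 0.87 without the 2 cows farthest from the IL1RN median. IL1B and IL1RN had r = 0.89 and rho = 0.87 (permutation adjusted p = 0.00178 and 0.00289), and r = 0.85 without the 2 farthest cows.

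TNF was less closely related to IL1B and CXCL8 by rank. With IL1B it had r = 0.69 (permutation adjusted p = 0.0151) but rho = 0.38 (permutation adjusted p = 0.238), and r fell to 0.25 without control cow 5 and supplemented cow 5, the 2 farthest from the TNF median. With CXCL8 it had r = 0.54 and rho = 0.32 (permutation adjusted p = 0.0585 and 0.307), and r = -0.01 without the same 2 cows. The relation of TNF to both genes thus rested on those cows. With PTGS2 it had r = 0.84 and rho = 0.64 (permutation adjusted p = 0.0053 and 0.0659), and r = 0.59 without them. All correlations share the library scaling of each cow.

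The genes with the most similar pattern were taken as the 5 with the highest Spearman rho over the 12 cows among named genes of at least 5 CPM, as a description. For IL1RN these were NINJ1 (rho 0.99), ACOD1, CHP1, PSTPIP2 and TMBIM1 (0.99 each). ACOD1 makes the antimicrobial metabolite itaconate in activated macrophages. For CXCL8 they were PLAU (0.98), the urokinase plasminogen activator, SLC25A33, CDKN2AIP, DUSP4 and its own receptor gene CXCR2 (0.97). For IL1B they were POLB (0.99), DDIT4 (0.97), BASP1, NECAP1 and CXCR1 (0.97), a second interleukin-8 receptor.

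CCL4 was closest to COTL1 (rho 0.96), the related chemokine CCL3 (0.95), GNG11, HSH2D and SRXN1. PTGS2 was closest to CHPT1 (0.97), RETREG1 (0.96), CASP9, LMNA and SOCS2 (0.92). IL1A was closest to KCTD18 and RSBN1 (0.92 each), CD83, a surface protein of activated dendritic and B cells (0.90), PHLPP2 and UTP6. TNF had the lowest leading rho: C1R (0.85), LGALS8, LPL (0.84), BATF2 and EHD4 (0.82). None of the 7 genes was among the 5 closest of another.

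The 10 named genes of at least 5 CPM with the largest ratio of control cow 5 to the second-highest cow included 5 of the 7 genes. The other 5 were ICAM1, the endothelial and leukocyte adhesion molecule (255 CPM, next cow 38.2 CPM), and PVR, the poliovirus receptor (159.5 against 26.3 CPM), followed by CCL3 (115 against 21.6 CPM), TNFSF9, the 4-1BB ligand (179 against 35.96 CPM), and TNFAIP3, the NF-kB inhibitor A20 (1126 against 239 CPM).

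**Figure D3:**
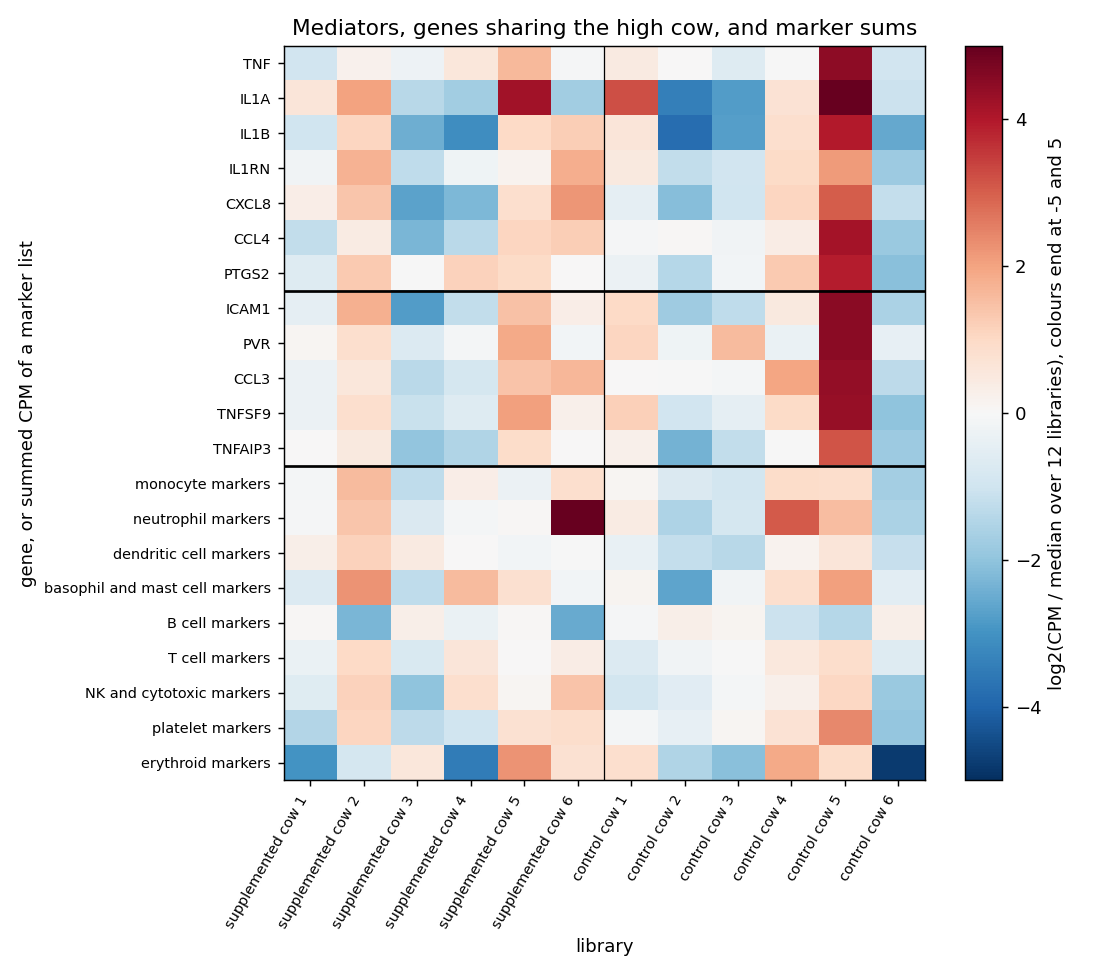
Heat map of log2(CPM / median over the 12 libraries) for the 7 genes (top), the other 5 genes with the largest ratio of control cow 5 to the second-highest cow (middle) and summed CPM of 9 marker lists (bottom), with 1 column per cow. The column of control cow 5 was high in both gene blocks, whereas supplemented cow 6 was high in neutrophil markers (97874 CPM).

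Markers of blood cells were summed in each library, since the 7 genes are made by few cell types. The 9 monocyte markers (all detected, none at 0 in any library) had sums of 1072 to 7753 CPM among supplemented cows and 809.7 to 4887 CPM among controls. Control cow 5, at 4787 CPM, ranked 3 of 12. The 9 neutrophil markers had sums of 904 to 97874 CPM among supplemented cows and 499 to 12614 CPM among controls, and control cow 5, at 4390 CPM, ranked 3 as well. CATHL2 was at 0 in 1 library, and the other neutrophil markers were counted in every library. The monocyte genes CD14 (218 CPM) and FCN1 (670.5 CPM) placed control cow 5 at ranks 3 and 5.

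Platelet markers were the 1 of the 9 lists in which control cow 5 was the highest. The 4 platelet markers found of 6 (GP9, ITGA2B, GP1BB and TUBB1) summed to 2197 CPM in this cow and to 108 to 859 CPM in the other 11, and GP1BB was at 0 in 11 libraries. Supplemented cows spanned 149 to 859 CPM and control cows 108 to 2197 CPM. TUBB1, the platelet beta-tubulin, accounted for 2054 CPM of the sum in control cow 5. Correlations of the 7 genes with this sum over the 12 cows ranged from r = 0.64 in IL1A to r = 0.93 in CCL4. Without control cow 5, the highest in the sum and in all 7 genes, they ranged from r = 0.39 in IL1A to r = 0.92 in CCL4. By rank IL1A had rho = 0.41 over the 12 cows (permutation adjusted p = 0.201). The part of platelets in the levels was not tested.

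The other lists placed control cow 5 as follows. Dendritic cell markers (7 of 7 found) summed to 86.5 to 209.5 CPM among supplemented cows and 35.6 to 145 CPM among controls, and basophil and mast cell markers (4 of 4, HDC at 0 in control cow 5) to 1.35 to 15.7 and 0.525 to 13.6 CPM, with control cow 5 at rank 2 in both. T cell markers (7 of 7) summed to 395 to 1345 and 426 to 1247 CPM, with control cow 5 at rank 2. B cell markers (7 of 7) summed to 649 to 4574 and 1370 to 4570 CPM, with control cow 5 at rank 10. NK and cytotoxic markers summed to 53.1 to 566 and 59.3 to 436 CPM over 8 matching rows. The names GNLY and GZMB did not each match a single row, so these 8 rows do not stand for 8 separate names. Erythroid markers (6 of 7) summed to 7.10 to 386 and 2.97 to 305 CPM. Control cow 5 was at rank 3 in both the erythroid and the NK list.

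Set against the monocyte markers of the same library, all 7 genes were highest in control cow 5. LYZ alone supplied 3321 CPM of the marker sum of 4787 CPM in control cow 5, so its ratios rest mostly on that marker. Whether the number of monocytes accounts for the levels was not tested. TNF stood at 55.4 CPM per 1000 CPM of monocyte markers in this cow, against 1.79 to 17.4 in the other 11 cows. IL1B stood at 355 against 3.93 to 101, CCL4 at 42.3 against 1.36 to 11.02, and PTGS2 at 10.1 against 0.676 to 2.90. IL1RN, at 85.2 against 24.9 to 70.1, varied least by this measure. IL1A stood at 33.4 against 0.0826 to 12.1, and CXCL8 at 112 against 4.21 to 64.3.

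Across the 12 cows IL1RN followed the monocyte markers (r = 0.93, rho = 0.89, permutation adjusted p over 35 relations = 0.000467 and 0.00192, and r = 0.91 without the 2 cows farthest from the marker median). It followed the neutrophil markers as well (r = 0.80, rho = 0.94, permutation adjusted p = 0.0035 and 0.00035, and r = 0.98 without supplemented cow 6 and control cow 4). TNF did not pass with monocyte markers: r = 0.41 and rho = 0.53 (permutation adjusted p = 0.223 and 0.104), r = 0.43 without the 2 farthest cows. With platelet markers CCL4 had r = 0.93 and rho = 0.92 (permutation adjusted p = 0.00035 and 0.0014), and r = 0.90 without control cows 5 and 6. TNF had r = 0.74 and rho = 0.62 with them (permutation adjusted p = 0.0113 and 0.0518), and r = 0.42 without these 2 cows. IL1B had r = 0.82 and rho = 0.76 (permutation adjusted p = 0.007 and 0.0157, r = 0.70 without them), and IL1RN r = 0.84 and rho = 0.85 (permutation adjusted p = 0.00651 and 0.00513, r = 0.71 without them). B cell markers ran the opposite way to IL1RN (r = -0.88, rho = -0.91, permutation adjusted p = 0.000467 and 0.00163), with r = -0.89 without supplemented cows 2 and 6. With T cell markers IL1RN had r = 0.75 and rho = 0.68 (permutation adjusted p = 0.0179 and 0.0331), and PTGS2 r = 0.76 and rho = 0.80 (permutation adjusted p = 0.00926 and 0.00924). TNF, IL1A, IL1B and CXCL8 passed with T cell markers by neither measure. Of the 35 relations, 20 passed by r and 23 by rho, so passing was not particular to monocyte or neutrophil markers. The permutation p include control cow 5, known to be high when the genes were chosen, so they describe the relations and carry no test.

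**Figure D4:**
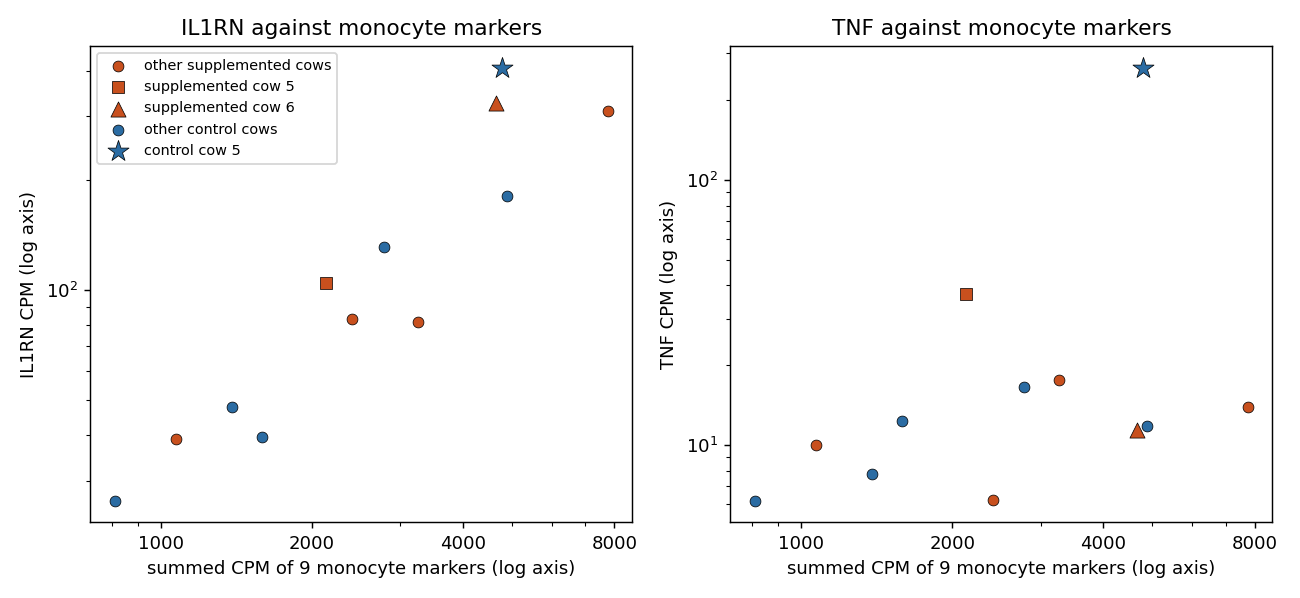
CPM of IL1RN (left) and TNF (right) against the summed CPM of 9 monocyte markers, both on log axes, with 1 point per cow. IL1RN rose along the marker sum (rho 0.89), while TNF stayed between 6.18 and 37.0 CPM in 11 cows over the whole range of the marker sum and reached 265 CPM in control cow 5.

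The comparison of the design asked whether these transcripts differed between supplemented and control cows. None of the 7 passed: edgeR called 0% of the 11990 genes at an adjusted p under 0.05 (0 genes), and 1.59% had an unadjusted p under 0.05 (191 genes, none of the 7). limma-voom also called 0 genes. DESeq2 called 2, not IL1B, IL1RN, CXCL8 or PTGS2, and gave no p for TNF, IL1A and CCL4, which were thus not tested by it. TNF had a log2 fold change (supplemented minus control) of -1.72 ± 0.95 (SE), its mean being 16.0 ± 10.96 CPM with supplement and 53.3 ± 104 CPM without (SD, n = 6 each, edgeR adjusted p = 0.999). This p of 0.999 applied to each of the 7 genes.

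IL1A differed by -2.31 ± 1.59 on the log2 scale (5.80 ± 9.94 against 29.4 ± 64.1 CPM). IL1B differed by -1.41 ± 1.23 (132 ± 114 against 349.8 ± 666 CPM). The antagonist IL1RN differed by 0.18 ± 0.71 (158 ± 126 against 139 ± 145 CPM). CXCL8 differed by -0.21 ± 0.96 (115 ± 109 against 133 ± 202 CPM), CCL4 by -1.71 ± 1.0 (12.7 ± 10.5 against 42.1 ± 78.7 CPM) and PTGS2 by -1.11 ± 0.90 (4.84 ± 2.38 against 10.6 ± 18.6 CPM). In each gene except IL1RN the control mean was the higher, and the SD of the control cows exceeded their mean in all 7 genes.

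Without control cow 5 all 7 fold changes were positive and none passed. They were 0.56 for TNF, 0.85 for IL1A, 0.73 for IL1B, 0.89 for IL1RN, 1.14 for CXCL8, 0.35 for CCL4 and 0.68 for PTGS2 (lowest edgeR adjusted p = 0.799). The 5 other control cows averaged 10.9 ± 4.11 CPM of TNF and 79.8 ± 90.6 CPM of IL1B. Without supplemented cow 6 the values were -1.62 for TNF, -2.04 for IL1A, -1.71 for IL1B, -0.16 for IL1RN, -0.76 for CXCL8, -2.05 for CCL4 and -1.0 for PTGS2.

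**Figure D5:**
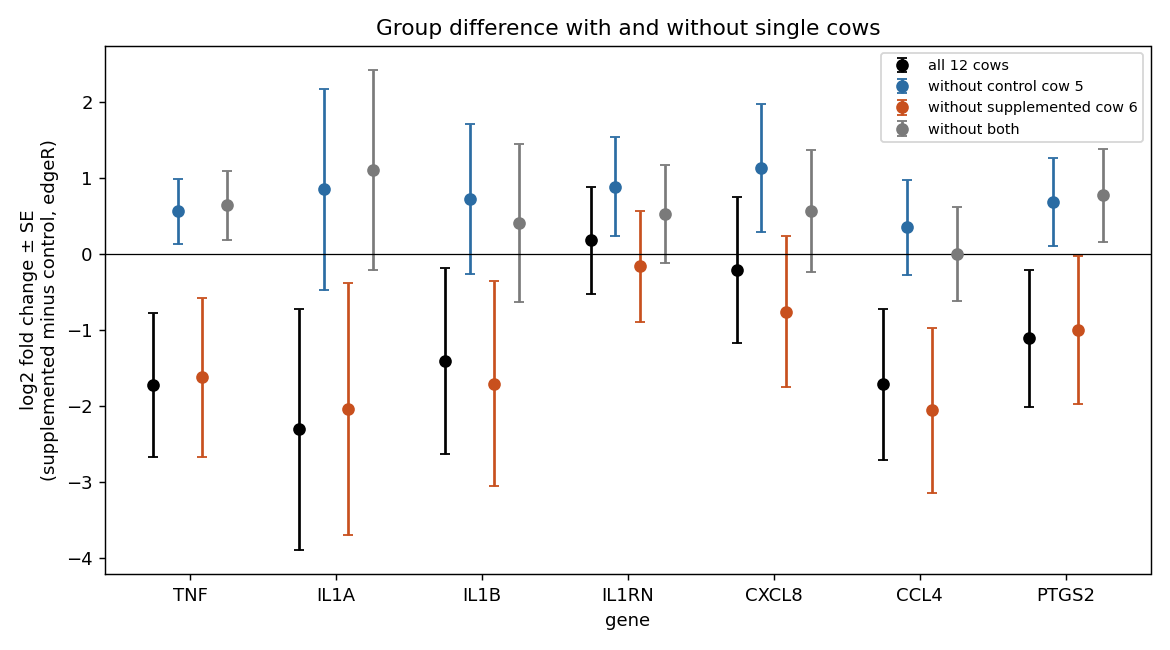
log2 fold change (supplemented minus control, edgeR) of the 7 genes with its standard error, for all 12 cows and without control cow 5, supplemented cow 6 or both. All 7 values lay above 0 without control cow 5, from 0.35 in CCL4 to 1.14 in CXCL8.

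The libraries carried 2 first index sequences, one in 5 supplemented and 3 control cows, among them control cow 5 and supplemented cow 6, and the other in 1 supplemented and 3 control cows. With the index as a term in the edgeR fit, the log2 fold changes were -1.67 for TNF, -2.16 for IL1A, -1.11 for IL1B, 0.21 for IL1RN, -0.0057 for CXCL8, -1.55 for CCL4 and -0.81 for PTGS2. Within the larger index group alone they were -2.52 for TNF, -3.18 for IL1A, -2.497 for IL1B, -0.74 for IL1RN, -1.17 for CXCL8, -2.60 for CCL4 and -2.19 for PTGS2, with none passing. The smaller index group held 1 supplemented cow, so no value was computed within it.

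In the authors' deposited table, which covers 14288 genes, the log2 fold change of TNF is -1.73 ± 0.85 (SE), with an unadjusted DESeq2 p of 0.0416 and an adjusted one of 0.9996. The authors' deposited table puts CCL4 at -1.71 ± 0.89 and IL1B at -1.39 ± 1.17, with the same adjusted p from DESeq2.

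Partners of these genes were examined in 7 lists of 104 gene names, of which 101 were found and 91 tested. None of the 91 passed in edgeR over all genes tested. An unadjusted edgeR p under 0.05 was found in 3 of the 91 (IL18, CCL20 and CCL2), beside 1.59% of all genes tested. Each of the 3 was high in a single cow, IL18 and CCL2 in supplemented cow 6 and CCL20 in control cow 5. Highest in control cow 5 were 25 of the 91 genes (27.5%, against 8.16% of all genes), and highest in supplemented cow 6 were 38 (41.8%, against 25.3%). The lists were chosen with earlier results of these data known, so these counts are a description and carry no test. CCL20 (at most 0.585 CPM outside control cow 5) and CCL2 (at most 1.48 CPM outside supplemented cow 6) passed the count minimum through the cow in which each was high. The median log2 fold change of all genes tested was 0.01. The genes named below are those with the lowest unadjusted p in each list, each with an edgeR adjusted p of 0.999, and the others were named after their values were seen.

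Receptors and processing enzymes were more often highest in supplemented cow 6 than in control cow 5. Over all genes tested, the shares highest in these cows were 25.3% and 8.16%. Among 12 genes of TNF release and receptors, 7 were positive and 5 negative (median log2 fold change 0.05, or -0.04 with no scaling factor), 6 were highest in supplemented cow 6 and 1 in control cow 5. TNFRSF1A, the main TNF receptor, reached 854 CPM in supplemented cow 6 and 321 CPM in control cow 5 (log2 fold change 0.95 ± 0.83, SE), ADAM17, the protease that sheds TNF, reached 80.97 and 49.95 CPM (0.36 ± 0.32), and the kinase MAP3K7 65.7 and 41.2 CPM (0.28 ± 0.14). Without supplemented cow 6 the median of this list was -0.07.

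Of 17 genes of interleukin-1 processing, receptors and signalling, 14 were positive and 3 negative (median 0.23), and 11 were highest in supplemented cow 6 against 2 in control cow 5. IL18, a cytokine matured by the same caspase, reached 141 CPM in supplemented cow 6, with 6.67 CPM the next level (2.99 ± 1.22). The decoy receptor IL1R2 stood at 135 against at most 18.9 CPM (2.58 ± 1.48) and the co-receptor IL1RAP at 201 against at most 28.4 CPM (2.36 ± 1.35). NLRP3, the inflammasome sensor, was highest in control cow 5 (102 CPM), with supplemented cow 6 next (84.9 CPM). Without supplemented cow 6 the list had 4 positive genes of 17 and a median of -0.06, and without control cow 5 14 of 17 and a median of 0.36.

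Chemokine genes were divided between both cows. Of the 14 genes of this list that were tested, 9 were positive and 5 negative (median 0.36). Fewer genes passed the count minimum without a cow. The median was 1.01 over 12 genes without control cow 5 and -0.33 over 13 genes without supplemented cow 6. Highest in control cow 5 were 5 genes, beside 8.16% of all genes tested. Of these, 3 (CCL3, CCL20 and GRO1) stood at 3 times or more the next cow, beside 0.267% of all genes. CCL20, which attracts immature dendritic and Th17 cells, reached 16.6 CPM in control cow 5, with 0.585 CPM the next level. GRO1, a neutrophil chemokine, stood at 2132 against at most 494 CPM and CXCL2 at 339 against at most 197 CPM. Receptors CXCR1 (495 CPM) and CXCR2 (506 CPM) and the monocyte chemokine CCL2 (21.1 CPM) were highest in supplemented cow 6, with control cow 5 at rank 2 in each (189, 102 and 1.48 CPM). CCR2, the CCL2 receptor, was highest in supplemented cow 4 (20.2 CPM, 0.92 ± 0.48). Reads of the near-identical GRO genes may be split between copies.

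Prostaglandin and leukotriene genes had 9 positive and 3 negative values among 12 tested (median 0.24, or 0.69 without control cow 5 and -0.11 without supplemented cow 6). The prostaglandin E2 receptors were also highest in control cow 5, PTGER2 at 20.5 CPM (next cow 6.95 CPM) and PTGER4 at 248 CPM (next cow 162 CPM). LTC4S, the leukotriene C4 synthase, stood at 32.0 against at most 9.44 CPM (-1.16 ± 0.80). ALOX5AP, which feeds 5-lipoxygenase, was at 1314 CPM in supplemented cow 6 and 48.2 CPM in control cow 5 (2.59 ± 1.45), and LTA4H at 63.6 and 36.02 CPM (0.37 ± 0.20). PTGES, the inducible prostaglandin E synthase, was not tested, since it was at 0 in 11 libraries.

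Among 9 tested genes of other induced cytokines, 4 were positive and 5 negative (median -0.06, or 0.47 without control cow 5 and -0.16 without supplemented cow 6). Interleukin-10 (IL10), which restrains macrophages, was at 76.3 CPM in control cow 5, ahead of 29.9 CPM in the next cow. IL27 (0.76 ± 0.52) was highest in supplemented cow 6 (46.3 CPM), OSM (1.18 ± 0.99) in supplemented cow 2 (307 CPM) and LTA (-0.57 ± 0.48) in control cow 3 (17.02 CPM). LTA, lymphotoxin alpha, is a relative of TNF whose gene lies next to it, and it ranked 7 in control cow 5 (5.34 CPM).

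Inhibitors and decay factors act to end the response. Of the 13 tested, 6 were positive and 7 negative (median -0.07). This became 12 of 14 positive without control cow 5 (median 0.38) and 3 of 13 without supplemented cow 6 (median -0.46). Highest in control cow 5 were 6 genes, beside 8.16% of all genes, and highest in supplemented cow 6 were 3, beside 25.3%. NFKBIA, the NF-kB inhibitor, stood at 2403 CPM in control cow 5 against at most 897 CPM elsewhere. ZFP36, which destabilises TNF mRNA, stood at 1038 against at most 793 CPM (-0.34 ± 0.30), and TNFAIP3 had a log2 fold change of -1.01 ± 0.89. The 3 genes highest in supplemented cow 6 were TNFAIP6, TNIP1 and DUSP1. TNFAIP6 stood at 122 CPM in supplemented cow 6 and 2.22 CPM in control cow 5 (2.58 ± 1.29). TNIP1 stood at 528 and 439.5 CPM, and DUSP1 at 4170 and 2223 CPM, in the same 2 cows.

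Immediate early genes, the first transcription factors induced after a stimulus, had 7 positive and 7 negative values among 14 tested (median 0.03, turning to -0.02 with upper-quartile scaling, -0.12 with no scaling factor and -0.52 without supplemented cow 6). FOSB stood at 145 CPM in control cow 5 against at most 79.7 CPM elsewhere (-1.35 ± 0.65) and ATF3 at 272 against at most 122 CPM (-0.87 ± 0.79). FOS, EGR1 and IER2 were highest in supplemented cow 6 and ranked 7, 10 and 11 in control cow 5. MYC was highest in supplemented cow 3 at 445 CPM (0.31 ± 0.48). Within the larger index group the list medians were -0.052 for TNF release and receptors, 0.036 for interleukin-1 processing, -0.19 for chemokines, 0.11 for prostaglandins and leukotrienes, -0.86 for other cytokines, -0.58 for inhibitors and decay factors and -0.42 for immediate early genes, beside 0.052 over all genes.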

How the data were processed

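Gene counts were used as the authors deposited them, as raw whole numbers per gene and library, per the file headers. Per the submitters' processing notes, the tools were FastQC, STAR, featureCounts and DESeq2 and the build was ARS-UCD1.2, without versions. Neither annotation nor strand setting is recorded in them, so overlapping, antisense and near-identical genes cannot be told apart. The authors' DESeq2 table holds the signal (mean normalised counts), log2 fold changes with standard errors, a Wald score, p-values and adjusted p-values, per the file headers. The deposited sequencing summary gives cluster counts, a percent for high-quality bases, a mean quality score and the index, per the file headers. Deposited biochemical, milk and filtered-count sheets were not used here.

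The samples are separate cows per the labels, and cow numbers only name them. Counts of all pairs differed by more than sampling noise (chi-square over its degrees of freedom at least 12.1). Total counts of 6.78 M to 16.9 M set the precision, and counting error is largest for IL1A. Groups were compared with edgeR's quasi-likelihood test (TMM scaling, robust, two-sided, Benjamini-Hochberg over 11990 genes averaging 10 or more raw counts, threshold 0.05), tested on simulated data. Standard errors were computed as log2 fold change over the root of F. log2 CPM used a prior count of 2. Correlations used 100000 permutations and were added after the data were seen. The genes, gene lists and marker lists were chosen with earlier results of these data known. The text names the 7 genes, up to 3 genes per list with the lowest unadjusted p, the 5 genes most like each of the 7, and the 10 with the largest ratio in a cow that stood 3 times above the next in 1 of the 7. Any other gene was named after its values were seen. Alternatives were other scalings, filters, DESeq2, limma-voom, the index, and omission of cows. Versions were R 4.3.3, edgeR 4.0.16, limma 3.58.1, DESeq2 1.42.0, Python 3.11.15, numpy 2.4.6 and pandas 2.3.3.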

Additional observations from a re-analysis of the deposited data

Results flagged for a closer look

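In log2 CPM, 2 values lay far from the rest of their group by Dixon's ratio: TNF in control cow 5, at 8.05 (ratio 0.740), and CCL4 in control cow 5, at 7.66 (ratio 0.639). Each gap was above the critical ratio for 6 cows. Of 14 groups examined, 2 were flagged, and in genes not chosen by their values chance flags about 1 in 20 groups. These genes were chosen with high levels in this cow known, so the flags describe the 2 values and test nothing.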

How the results depend on the processing

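The count of 5 genes at 3 times or more in control cow 5 was the same under 3 other scalings and thresholds of 2 and 5. DESeq2 called 2 genes, where every other fit called 0. No fold change of the 7 genes passed under any alternative that gave a p, and DESeq2 gave none for TNF, IL1A and CCL4. With limma-voom IL1A stood at 0.074, IL1B at 0.11, CXCL8 at 0.11 and PTGS2 at 0.46, against negative values in edgeR, and TNF at -0.14 and CCL4 at -0.51, nearer to 0 than in edgeR. Within the larger index group IL1RN stood at -0.74. Without both control cow 5 and supplemented cow 6, TNF stood at 0.64, IL1A at 1.11, IL1B at 0.41, CXCL8 at 0.57 and PTGS2 at 0.77. IL1RN, at 0.53, and CCL4, at -0.0024, kept their sign in that fit. The cause of the changes of sign was not tested. With each cow left out in turn, the log2 fold change ranged from -2.16 to 0.56 for TNF, from -4.06 to 0.85 for IL1A, from -1.71 to 0.73 for IL1B, from -0.16 to 0.89 for IL1RN, from -0.76 to 1.14 for CXCL8, from -2.05 to 0.35 for CCL4 and from -1.35 to 0.68 for PTGS2. The highest value was that without control cow 5 in each gene. No paired analysis was possible because the labels give cow identifiers that pair no animals across groups. Depth limits IL1A most, with fewer than 10 raw counts in 6 libraries.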

Other observations

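Of 5 cytokine genes below the count minimum, 3 were highest in control cow 5. IL6, the inducer of the acute-phase response, stood at 6.97 CPM, with 0.585 CPM the next level. The granulocyte growth factor CSF3 stood at 2.82 against at most 0.286 CPM and CSF2 at 0.741 against at most 0.296 CPM. LIF was highest in supplemented cow 2 (4.44 CPM), with control cow 5 at rank 5 (1.19 CPM), and IL36G was at 0 in all 12 libraries. CSF2 was at 0 in 10 libraries, CSF3 in 6 and IL6 in 5. None of the 5 genes was tested. How many of all genes below the minimum were highest in control cow 5 was not computed, so the count of 3 is a description only.

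Genes next to the 7 in the RefSeq annotation of ARS-UCD2.0, used here for gene order only, were matched by symbol. Next to TNF lie LTB and LTA, at ranks 4 (357 CPM) and 7 (5.34 CPM) in control cow 5. Next to PTGS2, PLA2G4A, the phospholipase that releases its substrate, ranked 3 (10.4 CPM) and highest in supplemented cow 6 (41.4 CPM). PSD4, beside IL1RN, ranked 11 (96.5 CPM), and CKAP2L, beside IL1A, ranked 9 (2.96 CPM). RASSF6, beside CXCL8, was highest in control cow 5, at 1.48 CPM against at most 0.663 CPM.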
